A study of Mus musculus with 6 samples.

Results

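p53, encoded by Trp53, and genes that it switches on or that hold it in check were examined in fetal liver of mouse embryos that lack Tmod3, the gene of the actin capping protein tropomodulin 3. The set has 10 genes, taken by their symbols: Trp53, Mdm2, Mdm4, Ccng1, Sesn1, Zmat3, Phlda3, Aen, Ei24 and Trp53inp1. Of these, 9 had a probe set of their own among the 19938 named genes, 1 probe set each, and Trp53 itself was not analysed here because no probe set was listed under that symbol alone. The transcript of p53 is therefore not part of the values, which concern its targets and regulators. The samples were 3 Tmod3-/- livers, labelled as small livers with anemia, and 3 Tmod3+/+ livers labelled normal, all at E14.5 and of the C57BL/6J strain, each from its own embryo. The sources used here do not say how the Tmod3 allele was disrupted. Total RNA of each whole liver was hybridised to 1 Affymetrix MoGene 1.0 ST array, and precision is limited by the small number of arrays. Levels are the deposited values on a log2 scale, and a difference is always the mean of the knockout arrays minus the mean of the wild type arrays.

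p53 is a transcription factor that is kept scarce in resting cells, because Mdm2 tags it for destruction and Mdm4 covers its activation domain. Damage to DNA, stalled replication or a fault in ribosome assembly frees p53, which then binds paired half-sites in DNA and raises genes of cell cycle arrest, repair, metabolism and cell death. Several of its targets, Mdm2 and Ccng1 among them, feed back on p53. In red cell precursors, active p53 is known for the anemia of ribosomal protein defects.

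Promoter sequences show where such half-sites lie in these genes. RefSeq promoter windows on GRCm38.p6, from 250 bases before to 50 bases after an annotated start, were found for 8 of the 10 genes. An exact match to the consensus p53 half-site, a palindrome that reads the same on both strands, was present in a window of 6 of the 8 genes (75.0%), against 9.55% of the 27025 genes in the promoter table and 6 of 24 genes (25.0%) in the 3 lists of other p53 targets. A pair of half-sites joined back to back, with at most 2 mismatches over its 20 bases, was present in 1 of the 8 genes, Ccng1, against 0.94% of all genes and 2 of the 24 other targets. The members are known p53 targets and regulators, so these shares describe the set, and a match in this window is not evidence of binding. The windows of Mdm4 and Phlda3 had no exact half-site, and of the 2 windows of Sesn1 only 1 had it. The promoters of Ccng1 and Aen are shown because these were the genes of the set whose knockout and wild type arrays did not overlap. They run 5′ to 3′ on the strand of the gene, chr11:40755237-40755536 on the minus strand for Ccng1 and chr7:78895808-78896107 on the plus strand for Aen. Capitals mark the paired site in Ccng1, which has 1 mismatch to the consensus and begins 195 bases before the start, and the half-site in Aen, which begins 121 bases before the transcript start in this window. Aen has a second annotated start, in whose window (chr7:78895677-78895976) the same half-site begins 10 bases after the start.
Ccng1: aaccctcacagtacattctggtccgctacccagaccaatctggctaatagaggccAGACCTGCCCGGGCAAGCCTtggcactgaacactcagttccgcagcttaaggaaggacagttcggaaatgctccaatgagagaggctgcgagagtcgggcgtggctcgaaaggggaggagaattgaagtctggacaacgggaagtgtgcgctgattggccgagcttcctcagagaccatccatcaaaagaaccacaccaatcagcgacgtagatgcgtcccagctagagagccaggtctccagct
Aen: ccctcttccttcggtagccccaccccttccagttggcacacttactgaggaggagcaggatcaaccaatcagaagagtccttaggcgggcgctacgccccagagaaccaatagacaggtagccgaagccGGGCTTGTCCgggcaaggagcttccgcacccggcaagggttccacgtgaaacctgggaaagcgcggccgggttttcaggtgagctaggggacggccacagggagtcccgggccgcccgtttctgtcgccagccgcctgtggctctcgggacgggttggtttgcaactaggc

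The other half-sites are shown with 10 bases on either side, because they show how far single half-sites vary among genes of the set. Capitals mark the half-site, which begins 186 bases before the start in Mdm2, 173 before the second of its starts in Sesn1, 10 in Ei24 and 75 in Trp53.
Mdm2: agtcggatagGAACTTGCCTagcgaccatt
Sesn1: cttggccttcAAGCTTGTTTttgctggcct
Ei24: cgtgcggcccGGGCATGCCCagtgtgggcg
Trp53: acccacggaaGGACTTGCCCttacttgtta

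The arrays matched their labels for the deleted gene, since Tmod3 read 1.32, 2.36 and 1.30 in knockout and 4.49, 4.78 and 4.90 in wild type replicates 1, 2 and 3. Knockout replicates 1 and 3 lay below their array medians for Tmod3, but knockout replicate 2 lay above its median of 1.40. The reason for the higher value in knockout replicate 2 was not tested. Over all 19938 genes, 3 (0.0150%) passed an adjusted p of 0.05 with limma, all lower in knockout liver. An unadjusted p under 0.05 was reached by 1801 genes (9.03%), and the genotypes did not overlap for 2641 genes (13.2%). The median difference was 0.01 over all genes but -0.25 over the genes whose mean level reached 3. The bright end of the arrays differed, with 90th percentiles of 3.67 to 3.82 in knockout arrays, 3.68 in wild type replicate 1 and 4.07 and 4.13 in wild type replicates 2 and 3. Differences after the arrays were quantile normalized again are therefore given as well, for each described p53 gene whose mean level reached 2. Array medians were 1.36 to 1.43, and values near them are close to the floor of the measurement.

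None of the 9 measured p53 genes passed the test in either direction. With limma the adjusted p over all genes ranged from 0.537 to 0.978, and 1 member, Ccng1, had an unadjusted p under 0.05. The differences ran from -0.28 in Ccng1 to +0.20 in Aen with a median of -0.09, and 7 of the 9 were negative, where 48.4% of all genes were negative. The 5 members whose mean level reached 2 were all negative, as were 76.5% of all genes at such levels. Of the 9, 4 were negative after renewed quantile normalization and the median was +0.025. The arrays did not overlap for 2 members, Ccng1 with knockout lower (7.10% of all genes) and Aen with knockout higher (6.14% of all genes). Knockout was lower without overlap for 849 of the 4656 genes whose mean level reached 2. The 95% intervals bound what these arrays leave possible for each gene. The lowest bound was a 1.59-fold lower level, for Ei24, and the highest bound was a 1.37-fold higher level, for Aen and Zmat3, both on the scale of the deposited values. For the 4 members with a mean level under 2 that scale flattens a change, so their intervals bound the measured values rather than the transcripts.

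**Figure D1:**
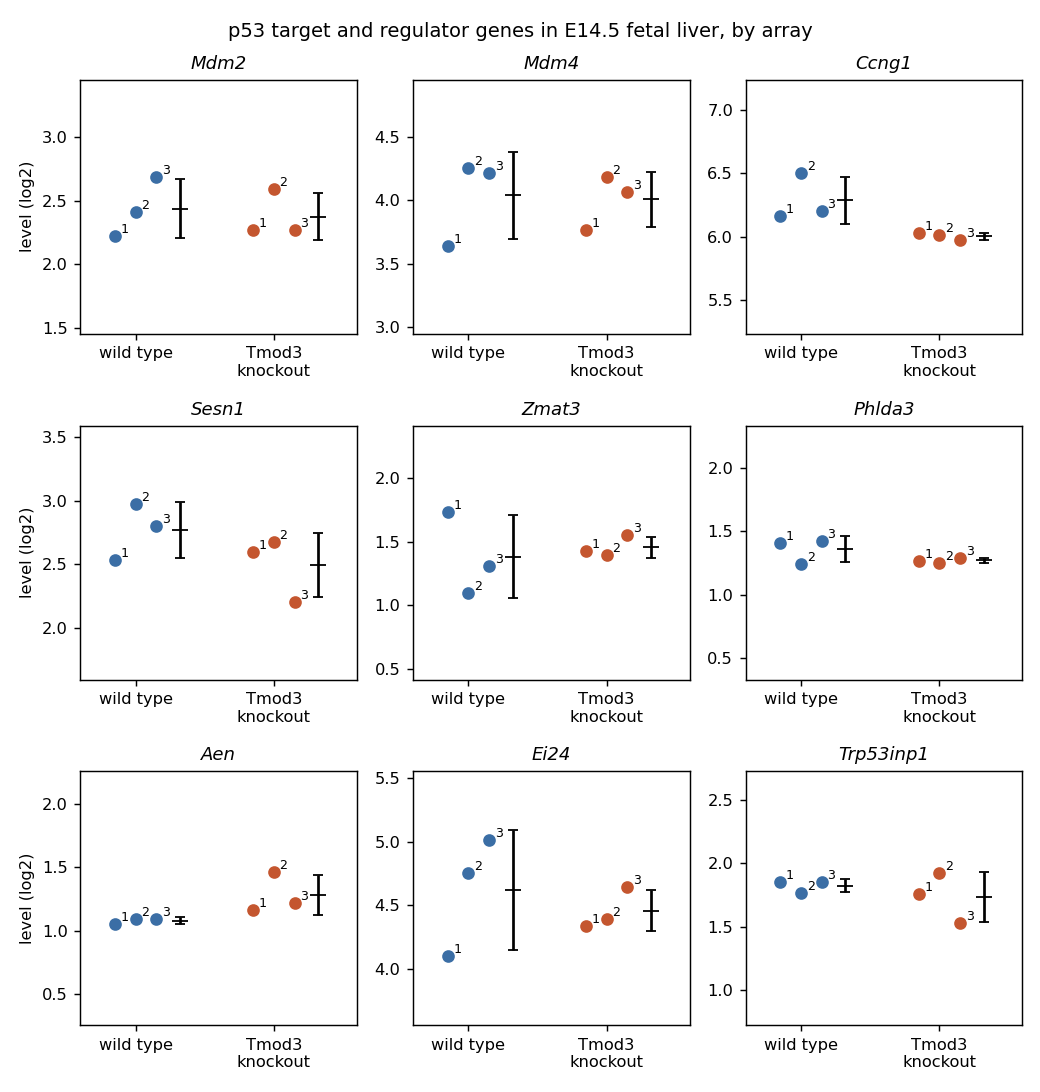
Level (log2) of the 9 measured p53 genes on each array, with wild type in blue and Tmod3 knockout in orange; digits give the replicate and the bar beside each group the mean ± SD (n = 3), and every panel spans the same height. The groups are apart only for Ccng1 (knockout 5.97 to 6.03, wild type 6.16 to 6.50) and Aen (knockout 1.16 to 1.46, wild type 1.05 to 1.09).

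The 2 direct inhibitors of p53 overlapped between genotypes. Mdm2, the ubiquitin ligase that marks p53 for destruction and is itself a p53 target, read 2.27, 2.59 and 2.27 in knockout and 2.22, 2.41 and 2.68 in wild type replicates 1, 2 and 3. The highest knockout value lay above 2 of the wild type values, and the lowest array of all was wild type replicate 1, so the groups overlapped. The Mdm2 difference was -0.06 (standard error, SE, 0.15) with a 95% interval of -0.41 to 0.29 (limma adjusted p = 0.941). Mdm4, a relative of Mdm2 that blocks the activation domain of p53, read 3.77, 4.19 and 4.07 in knockout and 3.64, 4.26 and 4.22 in wild type liver. In each group replicate 1 was the lowest, and the other two arrays of both groups lay close together. The Mdm4 difference was -0.03 (SE 0.19) with a 95% interval of -0.46 to 0.40 (limma adjusted p = 0.978). After renewed quantile normalization both signs turned, to +0.06 for Mdm2 and +0.23 for Mdm4, and neither passed (limma adjusted p = 0.945 and 0.735).

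Ccng1, which encodes cyclin G1, a p53 target that acts back on Mdm2 through a phosphatase, was the only member with an unadjusted p under 0.05 and did not pass over all genes. It read 6.03, 6.01 and 5.97 in knockout and 6.16, 6.50 and 6.20 in wild type liver. The knockout arrays spanned 0.055 and lay below every wild type array, of which replicate 2 was the highest. Means were 6.00 ± 0.03 against 6.29 ± 0.19 (SD, n = 3 each), a difference of -0.28 (SE 0.12) with a 95% interval of -0.56 to -0.01 (unadjusted p = 0.0429, limma adjusted p = 0.537). The 274 genes with a mean level from 6 to 7 had a median difference of -0.22. After renewed quantile normalization Ccng1 read 6.10, 6.07 and 6.11 in knockout and 6.28, 6.35 and 5.96 in wild type liver, so that wild type replicate 3 became the lowest array and the groups overlapped. The Ccng1 difference was then -0.10. It was -0.18 without wild type replicate 2 and -0.35 without wild type replicate 1.

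Markers of the cell types of the liver are given beside the Ccng1 values because some differed in the same arrays. For erythroid cells, 6 of 7 markers were measured and all 6 had negative differences, with a summed level, on the linear scale, of 320 to 463 in knockout and 498 to 681 in wild type arrays. All 6 had a mean level of at least 2, where 76.5% of all genes were negative. Tfrc, the brightest of them, weighs most in the sum and read 7.72 to 8.18 in knockout and 8.37 to 8.92 in wild type arrays. The marker sums were not repeated after renewed quantile normalization. For macrophages all 7 markers were measured and 6 were negative, and the summed level was 23.0 to 35.8 against 37.3 to 48.7. Vcam1, with a difference of -0.46, was the brightest of these and weighs most in that sum. For hepatocytes the summed level overlapped between groups, at 1958 to 3104 against 2838 to 3367, and 6 of 7 markers were negative. The exception was Afp, with +0.04, which is the brightest hepatocyte marker and weighs most in that sum. Single markers without overlap and with knockout lower were 3 for hepatocytes, 3 for erythroid cells and 1 for macrophages. The same held for 7.10% of all genes and for 849 of the 4656 genes whose mean level reached 2. Endothelial markers had 1 of 7 negative, with sums of 25.3 to 28.9 against 25.4 to 26.0. The sums also overlapped for the 4 measured megakaryocyte markers (60.3 to 91.1 against 74.9 to 84.5) and the 6 granulocyte markers (76.4 to 219.7 against 91.7 to 117.3). The macrophage marker C1qa lay at or below the array median on every array, as the only marker of any list to do so. Mean levels were under 2 for 5 of 7 endothelial, 3 of 7 macrophage, 3 of 6 granulocyte and 2 of 4 megakaryocyte markers. The same held for 1 of 7 hepatocyte and 0 of 6 erythroid markers. In RNA of a whole liver, fewer cells of a type and less RNA per cell cannot be told apart, and the part of these cell types in the Ccng1 values was not tested.

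Sesn1 encodes sestrin 1, a stress protein that restrains growth signalling through mTORC1. It read 2.60, 2.68 and 2.21 in knockout and 2.54, 2.98 and 2.80 in wild type liver. Knockout replicate 3 was the lowest array, and knockout replicates 1 and 2 lay above wild type replicate 1. The difference of -0.28 was close to that of Ccng1 but had a wider interval of -0.65 to 0.10 (limma adjusted p = 0.696). It was -0.14 after renewed quantile normalization and also -0.14 without knockout replicate 3.

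Zmat3 and Phlda3 are p53 targets whose products act on RNA and on AKT signalling respectively. Zmat3, a zinc finger protein that binds RNA, read 1.43, 1.39 and 1.55 in knockout and 1.74, 1.10 and 1.31 in wild type liver, and lay above the array median on 3 of 6 arrays. The wild type arrays thus held both the highest and the lowest Zmat3 values, and the difference was +0.08 (interval -0.30 to 0.45, limma adjusted p = 0.933). Phlda3, which competes with AKT for membrane lipids, read 1.27, 1.25 and 1.29 in knockout and 1.41, 1.24 and 1.42 in wild type liver. It was above the array median on 1 of 6 arrays, and wild type replicate 2 lay below the knockout values. The Phlda3 difference was -0.09 (interval -0.32 to 0.14, limma adjusted p = 0.860). After renewed quantile normalization Phlda3 was the only member whose groups did not overlap, with 1.23 to 1.26 in knockout and 1.28 to 1.46 in wild type liver. In that setting knockout was lower without overlap for 1503 of the 19938 genes and higher without overlap for 1071.

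The 3 members tied to cell death and autophagy went in both directions. Aen, the apoptosis enhancing nuclease, read 1.16, 1.46 and 1.22 in knockout and 1.05, 1.09 and 1.09 in wild type liver. Every knockout array lay above every wild type array, but only knockout replicate 2 exceeded its array median. The Aen difference was +0.20 (SE 0.11) with a 95% interval of -0.05 to 0.46 (limma adjusted p = 0.676). It was +0.11 without knockout replicate 2. After renewed quantile normalization the groups overlapped, since knockout replicate 1 (1.12) lay below wild type replicates 2 and 3 (1.14 and 1.16).

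Ei24, a membrane protein of the endoplasmic reticulum needed for autophagy, read 4.34, 4.39 and 4.64 in knockout and 4.10, 4.76 and 5.01 in wild type liver. The wild type arrays were spread over 0.91 and enclosed all 3 knockout arrays. The difference was -0.16 (SE 0.22) with a 95% interval of -0.67 to 0.35 (limma adjusted p = 0.887), and it was -0.43 without wild type replicate 1. The sign turned to +0.05 after renewed quantile normalization. Trp53inp1, a stress protein that promotes p53 activity and autophagy, read 1.76, 1.92 and 1.53 in knockout and 1.85, 1.76 and 1.85 in wild type liver. Knockout replicates held both its highest and its lowest value, and the difference was -0.09 (interval -0.37 to 0.19, limma adjusted p = 0.889).

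**Figure D2:**
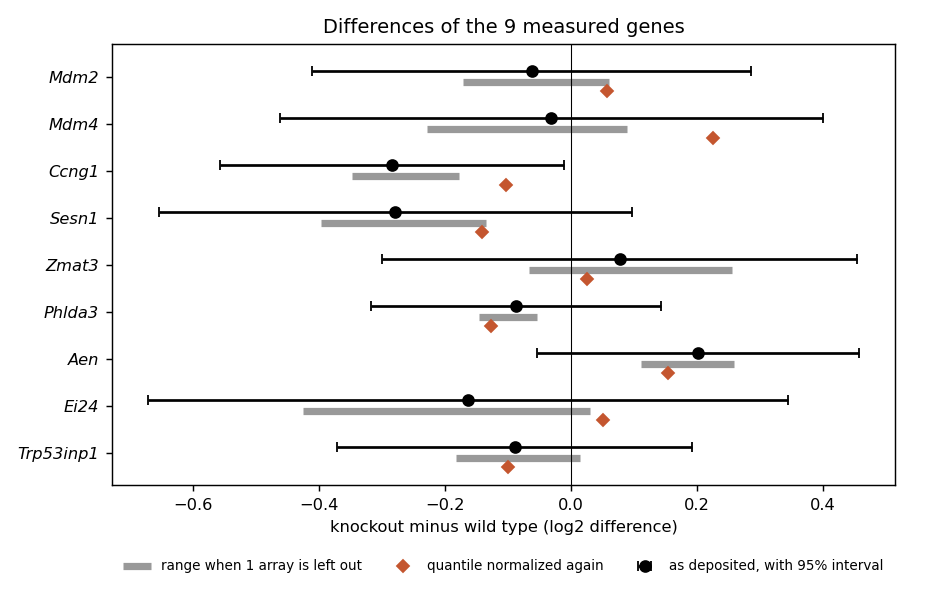
Knockout minus wild type (log2 difference) of the 9 measured p53 genes, with black points and bars for the deposited values and their 95% intervals, grey bars for the range when 1 array is left out, and orange diamonds after renewed quantile normalization. Only the interval of Ccng1 (-0.56 to -0.01) excludes 0, and its diamond lies at -0.10.

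The members also varied between arrays of one genotype. Wild type replicate 1 was the lowest wild type array for 6 of the 9 members, and wild type replicate 3 was the lowest for 0. Knockout replicate 2 was the highest knockout array for 5 members, while knockout replicate 3 was the lowest for 4 and the highest for 3. The median difference of the 9 members was -0.17 without wild type replicate 1 and +0.03 without wild type replicate 3.

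Among regulators of p53, the largest differences were negative and none passed over all genes. Of 18 listed regulators 17 were measured, and 0 passed with limma. A mean level under 2 was found for 7 of the 17. An unadjusted p under 0.05 was reached by 6 of the 17, all negative. In that direction it was reached by 6.44% of all genes and, tested on their own, 702 of the 4656 genes whose mean level reached 2. Groups did not overlap for 5 regulators, all with knockout lower, against 7.10% of all genes and 849 of those 4656. The median difference was -0.05, but leaving out single arrays moved it, to -0.26 for wild type replicate 1, to -0.16 for knockout replicate 3 and to -0.015 for knockout replicate 2. Ppm1d, the phosphatase that removes activating phosphates from p53 and is also a p53 target, read 3.59, 3.14 and 3.76 in knockout and 4.56, 4.29 and 4.39 in wild type liver. All knockout arrays lay below all wild type arrays, a difference of -0.92 (SE 0.17; limma adjusted p = 0.188). The Ppm1d value was -0.68 after renewed quantile normalization and -0.74 without knockout replicate 2.

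Chek1, a kinase of the replication checkpoint that phosphorylates p53, read 3.31, 3.51 and 3.51 in knockout and 3.94, 4.89 and 4.64 in wild type liver. The groups did not overlap, and wild type replicate 1 was the wild type array nearest to the knockout arrays. The Chek1 difference was -1.05 (SE 0.22; limma adjusted p = 0.222). Without wild type replicate 1 it was -1.33 and passed (limma adjusted p = 0.0320), in a setting where 95 genes passed in place of 3. It was -0.83 after renewed quantile normalization. Usp7, which removes ubiquitin from p53 and Mdm2, read 6.59, 6.53 and 6.10 in knockout and 6.87, 7.17 and 6.98 in wild type liver, again without overlap. Its difference was -0.60 (SE 0.15, limma adjusted p = 0.314) and -0.47 after renewed quantile normalization. Sirt1, a deacetylase that acts on p53, read 1.71, 2.58 and 1.81 in knockout and 2.42, 3.21 and 3.51 in wild type liver. Knockout replicate 2 lay above wild type replicate 1, and the Sirt1 difference was -1.01 (SE 0.31, limma adjusted p = 0.396), or -0.90 after renewed quantile normalization.

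**Figure D3:**
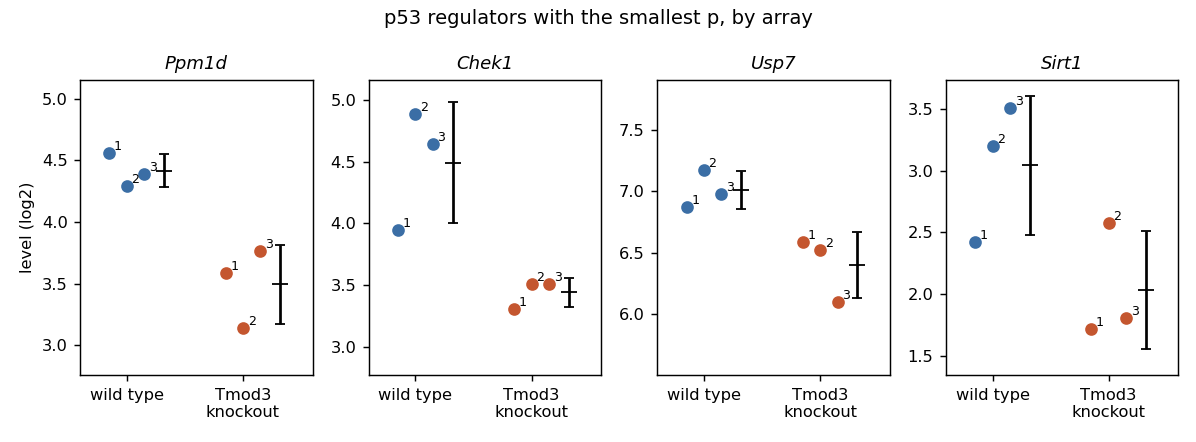
Level (log2) on each array of the 4 p53 regulators with the smallest p, with wild type in blue and Tmod3 knockout in orange; digits give the replicate and bars the mean ± SD (n = 3). Knockout arrays lie below all wild type arrays for Ppm1d, Chek1 and Usp7, while for Sirt1 knockout replicate 2 (2.58) lies above wild type replicate 1 (2.42).

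Other targets of p53 gave no common direction. Targets of cell cycle arrest had 7 of 8 genes measured, 0 past the adjusted threshold with limma, 1 with an unadjusted p under 0.05 and knockout higher (2.59% of all genes), and a median difference of -0.03. That gene was Plk2, a kinase of the polo family, which read 2.004, 2.06 and 1.56 in knockout and 1.02, 1.54 and 1.54 in wild type liver. The groups were apart by a narrow margin between knockout replicate 3 and wild type replicates 2 and 3, and the Plk2 difference was +0.50 (SE 0.19, limma adjusted p = 0.484). It was +0.33 without wild type replicate 1. That array lay below its array median for Plk2, whose mean level was 1.62. Knockout was higher without overlap for 6.14% of all genes. Of the 7 measured arrest genes, 5 had a mean level under 2. Gadd45a, a growth arrest gene read well above the array medians, had +0.07 (interval -0.25 to 0.38) and +0.29 after renewed quantile normalization. The other named arrest genes lay nearer the floor, with Gtse1 at -0.13 and Plk3 at -0.07. Cdkn1a, which encodes the p53 effector p21, was covered by a probe set shared with another gene and was not analysed here.

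Targets of apoptosis had 10 of 11 genes measured, with 0 past the adjusted and 0 past the unadjusted threshold of 0.05 (limma), and a median difference of +0.01. Of these, 9 had a mean level under 2. Perp, a membrane protein of cell death, had -0.34 (limma adjusted p = 0.686) and Pmaip1, which encodes the BH3-only protein NOXA, +0.37 (limma adjusted p = 0.729). For Pmaip1 the highest array was knockout replicate 1, at 2.37, where knockout replicates 2 and 3 read 1.55 and 1.49 and wild type liver 1.42, 1.66 and 1.21. Without that array the Pmaip1 difference was +0.088. Without wild type replicate 3 Perp had -0.16, and without knockout replicate 3 it had -0.21. Bid had +0.16, or +0.051 without wild type replicate 2 and +0.091 without knockout replicate 3, and the death receptor gene Tnfrsf10b -0.10. Targets of repair and metabolism had 9 of 12 genes measured, 0 past the adjusted threshold with limma, 1 with an unadjusted p under 0.05 and knockout higher (2.59% of all genes), and a median of -0.09. That gene was Ddit4, an inhibitor of mTORC1 that low oxygen also induces, which read 1.499, 1.46 and 1.21 in knockout and 0.90, 1.22 and 1.06 in wild type liver. Knockout replicate 3 lay just below wild type replicate 2, and the Ddit4 difference was +0.33 (SE 0.13, limma adjusted p = 0.503). Only knockout replicates 1 and 2 exceeded their array medians for Ddit4, so its values lie near the floor. Of the 9 measured genes of repair and metabolism, 6 had a mean level under 2. The translesion polymerase gene Polk had -0.16, the ribonucleotide reductase gene Rrm2b -0.14 and Sesn2, a relative of Sesn1, -0.10. These small values moved by over 1.5 times with 1 array left out, over -0.28 to -0.079 for Polk, -0.22 to -0.057 for Rrm2b and -0.15 to -0.015 for Sesn2. Polk had -0.076 after renewed quantile normalization.

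Genes that p53 lowers through p21 and the DREAM repressor complex had the lowest median of the 5 lists, -0.34, beside -0.25 for all genes whose mean level reached 3. Of 12 genes 11 were measured and 0 passed with limma. An unadjusted p under 0.05 was reached by 6, all negative. This compares with 6.44% of all genes and, tested on their own, 702 of the 4656 genes whose mean level reached 2. Groups did not overlap for 6, all with knockout lower, against 7.10% of all genes and 849 of those 4656. Of the 11 measured genes of this list, 1 had a mean level under 2. The S phase cyclin gene Ccne2 had the smallest p, reading 5.80, 5.42 and 5.38 in knockout and 6.23, 6.85 and 6.45 in wild type liver, a difference of -0.98 (SE 0.18, limma adjusted p = 0.194). Ccna2 had -0.61, the mitotic kinase gene Aurka -0.45 and the phosphatase gene Cdc25c -0.42 (limma adjusted p = 0.370, 0.417 and 0.464). After renewed quantile normalization the median of the list was -0.19, beside -0.059 for all genes whose mean level reached 3, again without the dimmer genes. The single values were then -0.80 for Ccne2, -0.53 for Ccna2, -0.25 for Aurka and -0.37 for Cdc25c. These genes also follow the share of dividing cells, and whether p53 took part was not tested.

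**Figure D4:**
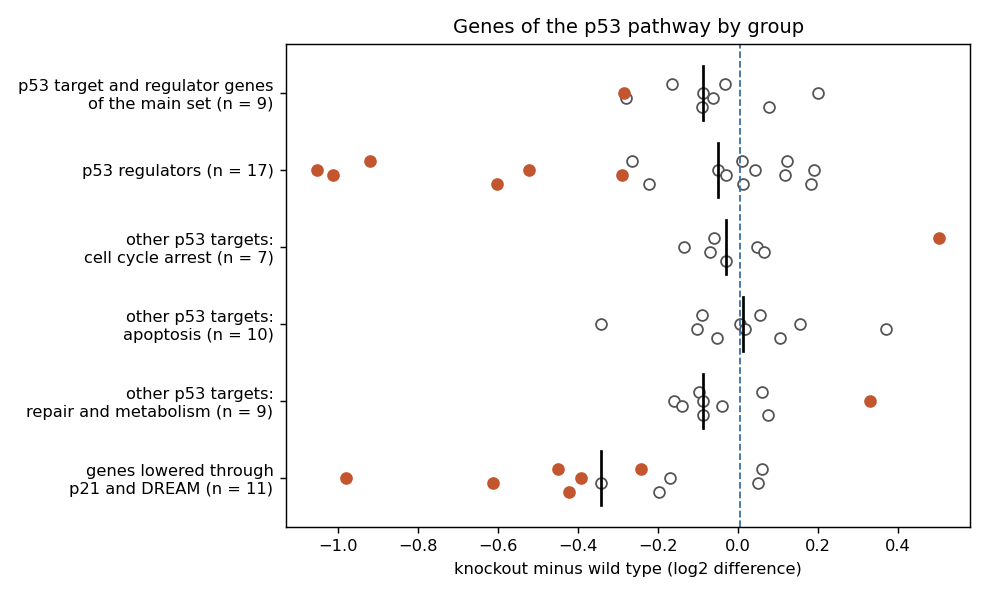
Knockout minus wild type (log2 difference) of the measured p53 genes by group, 1 point per gene, filled orange where the unadjusted p is under 0.05, with the group median as a black line and the median of all genes (0.01) dashed. The filled points of regulators and of genes lowered through p21 and DREAM lie below 0, while the 3 lists of other p53 targets have medians of -0.03, +0.01 and -0.09.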

How the data were processed

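Total RNA (6 ug) of 6 mouse fetal livers at E14.5 was measured, 3 per genotype. The deposited table holds log2 values for 28853 probe sets, and the submitters' processing notes name RMA without a version. No source used here states the log base, which was read as 2 from the range. Array medians are low for RMA, so a further step by the authors is possible, which would change the size of every difference. Of the probe sets, 21789 had exactly 1 gene symbol in the platform annotation, 1621 several and 5443 none. Per gene the probe set with the highest mean was kept, with no filter on dim genes. The genotypes were tested in R 4.3.3 with lmFit and eBayes of limma 3.58.1 (two-sided, Benjamini-Hochberg over all 19938 genes, threshold 0.05), and intervals are 95% intervals of that fit. On simulated data with 19938 genes the comparison recovered 73.3% of genes changed by 1 and 96.6% of those changed by 2 on the log2 scale, with 4.31% of calls false. Noise was drawn as normal for each gene on its own, so real arrays may give less. The simulation also changed many more genes than the 3 that passed here, which eases the adjusted threshold. Its recovery therefore does not carry over to these arrays, where Chek1 at -1.05 did not pass (limma adjusted p = 0.222). Correlations between arrays over all probe sets were 0.980 to 0.981 within knockout, 0.978 to 0.990 within wild type and 0.974 to 0.983 between them, and no array was a copy of another. Besides the members, up to 4 genes per list by smallest p were named. A further step, naming the genes most like Trp53, could not be run without a value for Trp53. The members and lists were chosen with earlier results of these data known. Alternatives were renewed quantile normalization, median centring, a replicate block, omission of each array, averaged probe sets per gene, a mean level of at least 2, an intensity trend with robust fitting, and all probe sets. Promoter windows came from RefSeq (GRCm38.p6). Genes without a probe set of their own were not analysed here.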

Additional observations from a re-analysis of the deposited data

How the results depend on the processing

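No member passed in any of 13 other settings (113 values, lowest limma adjusted p = 0.229), and with 3 arrays a group smaller differences than those bounded by the intervals cannot be told from none. The count of all genes passed was 3, but 6 after renewed quantile normalization and 0 with the replicate block; leaving out 1 array gave 0 to 95. Correlations of the deviations of same-numbered arrays were 0.11, 0.06 and -0.11. With 3 arrays a group they cannot settle whether the replicate numbers pair the arrays. Under the replicate block no member passed (0). Signs turned after renewed quantile normalization for Mdm2 (+0.057), Mdm4 (+0.23) and Ei24 (+0.050). With 1 array left out the difference ran from -0.17 to 0.061 for Mdm2, -0.23 to 0.089 for Mdm4, -0.066 to 0.26 for Zmat3, -0.43 to 0.031 for Ei24 and -0.18 to 0.014 for Trp53inp1. For Plk3 it ran from -0.14 to 0.018 and for Gadd45a from -0.053 to 0.15. List medians with 1 array left out ran from -0.26 to -0.015 for regulators, -0.098 to 0.076 for arrest, -0.079 to 0.063 for apoptosis and -0.096 to 0.015 for repair and metabolism. The regulators' count ran from 0 to 1 (Chek1 without wild type replicate 1). The arrest median was +0.026 after renewed quantile normalization and +0.019 among genes with a mean of at least 2. There the regulators' median was -0.41, because the dim members drop out, beside -0.19 for all genes at such levels. The cause of the other changes was not tested.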
